A study of Mus musculus with 6 samples.

Results

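*Ide* and 5 other peptidase genes, *Mme*, *Ece1*, *Ece2*, *Thop1* and *Nln*, were followed in the irradiated cortex of *Lgmn*+/+ and *Lgmn*−/− mice. All 6 encode zinc metallopeptidases, and between them these cut peptides such as insulin, amyloid β and neuropeptides. They were taken by gene symbol from 51826 genes in the deposited tables, and all 6 were among the 18345 genes that passed the filter on low counts. *Ide* was chosen by its own counts in these 6 libraries, since it was already known to differ between the genotypes, so its values are given as a description without a test. Its 5 relatives were named for their function and were tested.

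The cortex was collected on day 3 after a single whole-brain dose of 10 Gy X-rays. The *Lgmn*+/+-IR group and the *Lgmn*−/−-IR group held 3 libraries each, all from male BALB/c mice of 6 to 8 weeks. Both groups were irradiated, and non-irradiated cortex was not analysed here. *Lgmn* encodes asparagine endopeptidase (AEP), a lysosomal protease. The knockout descended from 1 positive ES cell clone with a floxed *Lgmn* allele, from which the Neo cassette had been taken out with Flp mice, and was obtained as *Lgmn* flox/flox:Cre+. The driver of Cre was not named. Nothing in the labels says whether a library came from 1 animal or from a pool, so the p-values measure the spread between these libraries.

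These enzymes hold a zinc ion in the active site and clip peptides that are too small or too loosely folded for larger proteases. *Ide* (insulin-degrading enzyme) works mainly in the cytosol, where it closes around insulin, glucagon, amylin and amyloid β. *Mme* (neprilysin) sits on the cell surface and cuts enkephalins, tachykinins and amyloid β. *Ece1* and *Ece2* are endothelin-converting enzymes of the same family as *Mme*, and both can also degrade amyloid β inside cells. *Thop1* (thimet oligopeptidase) and *Nln* (neurolysin) are close relatives of each other that cut neurotensin, bradykinin and other short peptides. In brain, loss of *Ide* or *Mme* is known to raise the level of amyloid β.

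The zinc-binding stretch is what the 6 genes have in common, and it is shown because it places *Ide* apart from its relatives. Each line gives 45 coding bases of the GRCm38 reference read 5′ to 3′ on the strand of the gene, and the capitals mark the 15 bases that encode the zinc-binding motif. Each window lies within 1 coding exon.
Ide: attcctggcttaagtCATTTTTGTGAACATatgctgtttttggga
Mme: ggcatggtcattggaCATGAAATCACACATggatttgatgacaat
Ece1: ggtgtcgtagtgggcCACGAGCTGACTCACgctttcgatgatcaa
Ece2: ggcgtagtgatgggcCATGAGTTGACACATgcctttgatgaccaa
Thop1: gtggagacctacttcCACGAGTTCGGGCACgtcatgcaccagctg
Nln: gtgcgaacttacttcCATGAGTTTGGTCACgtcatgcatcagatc

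In *Ide* the order of the motif is inverted relative to the other members, which is the mark of its peptidase family. The *Ide* window is chr19:37329121-37329165 on the minus strand, in exon 2 of 24 of Ide-201. The *Mme* window is chr3:63362006-63362050 on the plus strand, in exon 18 of 23 of Mme-206. The *Ece1* window, chr4:137957157-137957201, lies in exon 17 of 20, and the *Ece2* window, chr16:20643875-20643919, lies in exon 16 of 19, both on the plus strand. The *Thop1* window, chr10:81080561-81080605, is on the plus strand in exon 9 of 13, and the *Nln* window, chr13:104046198-104046242, is on the minus strand in exon 9 of 13. *Thop1* and *Nln* shared 35 of 45 bases, and *Ece1* and *Ece2* shared 34. *Mme* shared 33 bases with *Ece2* and 26 with *Ece1*. *Ide* shared 11 to 16 bases with the others.

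The libraries held 41874462 to 46829441 counts on genes. *Lgmn*, on chromosome 12 from 102394084 to 102439813, had counts of 5558, 5528 and 5775 in *Lgmn*+/+-IR against 3703, 3269 and 4109 in *Lgmn*−/−-IR. Its log2 fold change was −0.64 (SE 0.12, edgeR adjusted p = 0.0315), so the knockout libraries stood at 0.64-fold of the *Lgmn*+/+-IR level. The call was lost in 8 of 19 alternatives, while all 3 knockout libraries were below the others. The gene count adds up all exons, and the part of it that comes from the floxed stretch was not separated. Of 6 oligodendrocyte markers 5 fell (1.68% of all genes fell), with summed counts scaled to library size (CPM) of 3402 to 4124 in *Lgmn*+/+-IR against 2243 to 2408 in *Lgmn*−/−-IR. All 5 red blood cell markers rose (1.65% of all genes rose), from summed CPM of 7.59 to 15.8 to summed CPM of 233.6 to 2273, and limma-voom called 3 of the 5. Of 7 astrocyte markers 1 rose, *Aqp4*, beside the same 1.65% of all genes. DESeq2 called 2, and over all 18345 genes it called 1423 in either direction. In 4 of the 7 all *Lgmn*−/−-IR libraries were above all *Lgmn*+/+-IR libraries, beside 12.4% of all genes. No oligodendrocyte, red blood cell or astrocyte marker was at 0 counts. Neuron markers (8) and microglia markers (7) gave no call with edgeR, with 0 and 2 at an unadjusted p under 0.05 (18.6% of all genes). DESeq2 called 0 and 1 of them. In bulk tissue, fewer cells of a type and less RNA per cell cannot be told apart.

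*Ide* was expressed at a moderate level in *Lgmn*+/+-IR cortex and was 2.54-fold higher in *Lgmn*−/−-IR cortex. Its counts were 1550, 1514 and 1786 in *Lgmn*+/+-IR against 4132, 3922 and 4598 in *Lgmn*−/−-IR. On the CPM scale the libraries read 36.3, 35.4 and 39.3 against 93.0, 84.5 and 104.8. The lowest knockout library thus lay above the highest *Lgmn*+/+-IR library, and within each genotype the libraries were close together. Among all genes tested, 12.4% had all *Lgmn*−/−-IR libraries above all *Lgmn*+/+-IR libraries in this way. Mean CPM came to 37.0 ± 2.04 for *Lgmn*+/+-IR against 94.1 ± 10.2 for *Lgmn*−/−-IR (SD, n = 3). The fitted log2 fold change was 1.35 (SE 0.11), with a 95% interval of 2.13-fold to 3.04-fold. This interval does not allow for the choice of *Ide* by its own counts. The changes in oligodendrocyte and red blood cell markers went with the same contrast, and their part in the *Ide* difference was not tested. With the hemoglobin genes taken out of the table, the log2 fold change of *Ide* was 1.35. That step leaves the counts of *Ide* unchanged, so it cannot show whether blood had a part in the difference.

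*Ide* lies on chromosome 19 of GRCm38 from 37268743 to 37337852 on the minus strand, and the annotation lists 5 transcripts for it. The only annotated gene inside it is *Rpl10-ps6*, a ribosomal protein pseudogene in an intron on the same strand. *Rpl10-ps6* had counts of 66, 64 and 71 in *Lgmn*+/+-IR against 88, 91 and 83 in *Lgmn*−/−-IR, far below those of *Ide*. Its exons do not overlap those of *Ide*.

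On the FPKM scale, which corrects for transcript length and so allows genes to be set side by side, the position of *Ide* among the 6 genes differed between the genotypes. In *Lgmn*+/+-IR the order of mean FPKM was *Thop1* (21.5 ± 1.92), *Ece1* (14.4 ± 0.42), *Ece2* (7.93 ± 1.26), *Ide* (7.13 ± 0.45), *Nln* (6.43 ± 0.27) and *Mme* (2.18 ± 1.24), each with its SD over 3 libraries. The libraries of *Ece2* and *Ide* overlapped, and the other neighbors in this order were separate. In *Lgmn*−/−-IR the order was *Thop1* (21.1 ± 0.41), *Ide* (17.5 ± 1.19), *Ece1* (16.1 ± 0.76), *Ece2* (6.60 ± 0.77), *Nln* (5.03 ± 0.71) and *Mme* (1.41 ± 1.12). There *Ide* overlapped with *Ece1*, and all other neighbors were separate. *Ide* thus ranked 4, 4 and 3 in the *Lgmn*+/+-IR libraries and 2 in each *Lgmn*−/−-IR library.

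**Figure D1:**
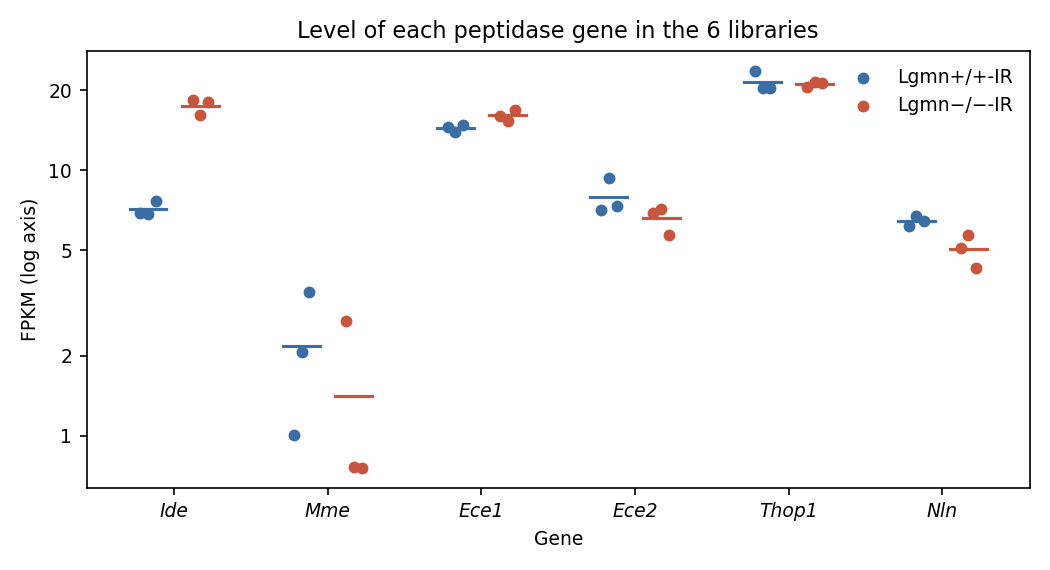
FPKM (log axis) of the 6 peptidase genes in each library, with *Lgmn*+/+-IR in blue and *Lgmn*−/−-IR in red; points are libraries and short lines are group means. *Ide* lies between 6.84 and 7.65 in *Lgmn*+/+-IR and between 16.2 and 18.3 in *Lgmn*−/−-IR, next to *Ece1*, while *Thop1* lies between 20.4 and 23.7 in all 6 libraries.

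The share of *Ide* in the summed FPKM of the 6 genes was 11.6%, 11.5% and 12.7% in the *Lgmn*+/+-IR libraries. It was 26.3%, 24.3% and 27.0% in the *Lgmn*−/−-IR libraries. The 5 relatives together summed to 52.5 ± 0.05 FPKM in *Lgmn*+/+-IR against 50.2 ± 1.28 FPKM in *Lgmn*−/−-IR. Each knockout sum, the highest at 51.4, was below each *Lgmn*+/+-IR sum, the lowest at 52.45. The larger share of *Ide* thus came with a slightly lower sum of its relatives. Relative to *Thop1*, the most abundant of the 6, the level of *Ide* was 0.33 ± 0.04 in *Lgmn*+/+-IR against 0.83 ± 0.07 in *Lgmn*−/−-IR.

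None of the 5 relatives passed the adjusted threshold of 0.05 with edgeR, and 1 (*Nln*) had an unadjusted p under 0.05. DESeq2 and limma-voom also called 0 of 5. Among all 18345 genes, 3.33% passed and 18.6% had an unadjusted p under 0.05. The median log2 fold change of the relatives was −0.22, beside −0.01 for all genes tested. On the CPM scale 2 of the 5, *Ece2* and *Nln*, had all *Lgmn*−/−-IR libraries below all *Lgmn*+/+-IR libraries, which was the case for 13.3% of all genes. The other 3 overlapped.

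**Figure D2:**
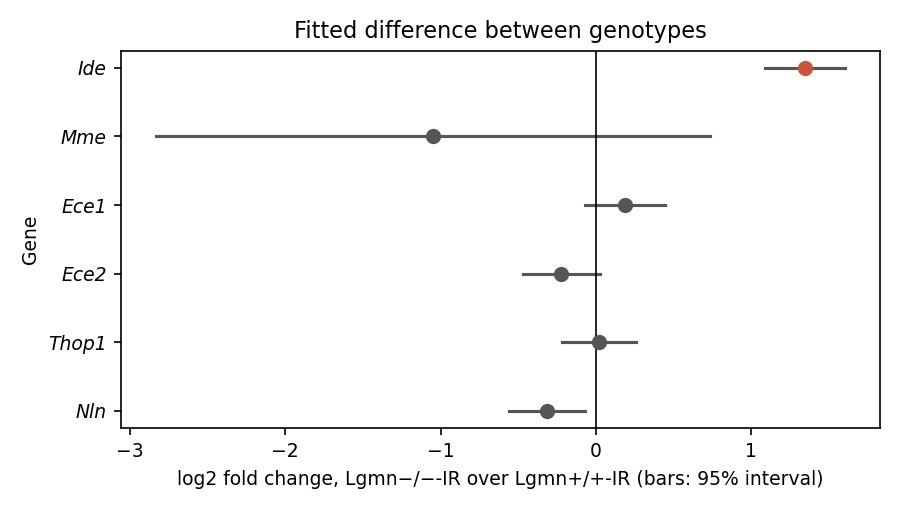
Fitted log2 fold change (x axis, *Lgmn*−/−-IR over *Lgmn*+/+-IR) of the 6 genes (y axis), with bars for the 95% interval of the edgeR fit; *Ide*, in red, is a description without a test. The interval of *Ide* runs from 1.09 to 1.60 and does not allow for the choice of *Ide* by its own counts. Among the relatives the highest upper bound is 0.74, that of *Mme*.

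*Nln* was the relative with an unadjusted p under 0.05, and it was lower in the knockout. Its counts were 1112, 1198 and 1247 in *Lgmn*+/+-IR against 980, 1099 and 863 in *Lgmn*−/−-IR. Its CPM were 26.1, 27.98 and 27.4 against 22.1, 23.7 and 19.7. All 3 knockout libraries were below the *Lgmn*+/+-IR libraries, and the FPKM did not overlap either, at 6.17 to 6.71 against 4.29 to 5.70. The log2 fold change was −0.32 (SE 0.10, 95% interval −0.56 to −0.07, unadjusted p = 0.0179, edgeR adjusted p = 0.169), which did not pass. *Nln* lies on chromosome 13 from 104023057 to 104109614 on the minus strand.

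*Thop1*, the closest relative of *Nln*, was the most abundant of the 6 genes and showed no detectable difference. Its counts were 2993, 2531 and 2855 in *Lgmn*+/+-IR against 2836, 2846 and 3045 in *Lgmn*−/−-IR, and the libraries of both genotypes overlapped. The mean was 64.0 ± 5.62 CPM against 64.8 ± 4.13 CPM. The log2 fold change of 0.02 (SE 0.10, edgeR adjusted p = 0.939) had a 95% interval of −0.22 to 0.26, and its sign changed with the normalization. *Thop1* lies on chromosome 10 from 81070035 to 81082559 on the plus strand.

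*Ece1* processes big endothelin to endothelin and was the relative with the highest level after *Thop1*. Its counts were 2894, 2692 and 2970 in *Lgmn*+/+-IR against 3199, 3097 and 3703 in *Lgmn*−/−-IR. The CPM of the genotypes overlapped, at 62.9 to 67.8 against 66.7 to 84.4. The FPKM did not overlap, at 13.95 to 14.76 against 15.34 to 16.87, with the knockout libraries above. Its log2 fold change was 0.19 (SE 0.11, 95% interval −0.07 to 0.44, edgeR adjusted p = 0.414). *Ece1* lies on chromosome 4 from 137862237 to 137965229 on the plus strand.

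*Ece2*, which cuts peptides inside the secretory pathway, leaned the other way. Its counts were 896, 1028 and 1023 in *Lgmn*+/+-IR against 894, 930 and 777 in *Lgmn*−/−-IR. The CPM read 21.0, 24.0 and 22.5 against 20.1, 20.03 and 17.7, so the genotypes were separate by a narrow gap on this scale, and the FPKM overlapped. The log2 fold change was −0.22 (SE 0.11, 95% interval −0.47 to 0.02, edgeR adjusted p = 0.314). *Ece2* lies on chromosome 16 from 20629828 to 20646485 on the plus strand. There it shares exons with the annotated gene *Gm49333*, which has 99.9% identity over 1402 bases of the *Ece2* transcript (40.7% of its length). *Gm49333* was not analysed here, and how reads of the shared exons were assigned is not given in the sources used here, so the level of *Ece2* is uncertain.

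*Mme* had the lowest level and the widest spread. Its counts were 129, 289 and 999 in *Lgmn*+/+-IR against 416, 144 and 127 in *Lgmn*−/−-IR, and the CPM were 3.02, 6.75 and 21.97 against 9.37, 3.10 and 2.89. Replicate 3 of *Lgmn*+/+-IR was far above all others, and the genotypes overlapped. The log2 fold change was −1.05 (SE 0.76, edgeR adjusted p = 0.507), with a 95% interval of −2.83 to 0.74 that spans a large fall and a moderate rise. Without replicate 3 of *Lgmn*+/+-IR the log2 fold change was 0.07. In that library 1 FPKM of *Mme* stood for 6.31 CPM, beside 3.01 to 4.05 in the other 5, so the FPKM of 3.48 there is low for its count.

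Neprilysin is known to be abundant in the striatum, and the level of *Mme* went with that of other striatal genes in these cortex libraries. The summed CPM of 5 striatal markers (*Drd1*, *Drd2*, *Adora2a*, *Ppp1r1b* and *Rgs9*) was 292.9, 662.8 and 1067 in *Lgmn*+/+-IR against 1085, 197.4 and 223.3 in *Lgmn*−/−-IR. The 3 libraries with the highest striatal sum were also the 3 with the most *Mme*. Replicate 1 of *Lgmn*−/−-IR and replicate 3 of *Lgmn*+/+-IR had nearly the same striatal sum and differed in *Mme* (9.37 against 21.97 CPM). None of the 5 markers was at 0, and none passed with edgeR or DESeq2 (0 at an unadjusted p under 0.05). The summed CPM of 6 markers of cortical neurons was 358.8 to 490.8 in *Lgmn*+/+-IR against 424.4 to 681.0 in *Lgmn*−/−-IR. With the striatal sum as a covariate, an alternative chosen after seeing the data, the log2 fold change of *Mme* was −0.21 and that of *Ide* was 1.36. Whether striatal tissue had a part in the values of either gene was not tested.

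**Figure D3:**
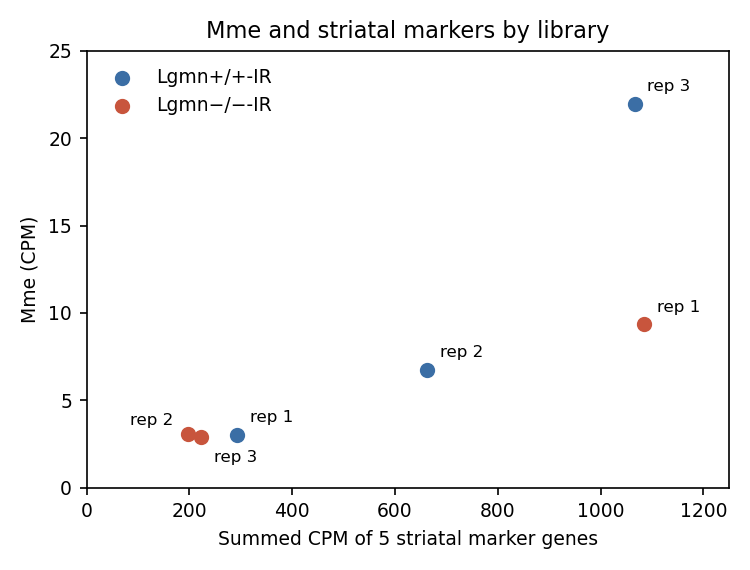
*Mme* (y axis, CPM) against the summed CPM of 5 striatal marker genes (x axis) in the 6 libraries, coloured by genotype and labelled by replicate. Replicate 3 of *Lgmn*+/+-IR, with 1067 CPM of striatal markers, has 21.97 CPM of *Mme*, and the 3 libraries with 197.4 to 292.9 CPM of striatal markers have 2.89 to 3.10.

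Lists of other genes that make, cut or receive peptides were read beside the 6. Of the other members of the peptidase families of *Ide*, *Mme* and *Thop1*, 11 were in the tables and 10 were tested. None of the 10 passed with edgeR or DESeq2, and the median log2 fold change was −0.10. An unadjusted p under 0.05 was found for 1 of them (18.6% of all genes). All *Lgmn*−/−-IR libraries were above all *Lgmn*+/+-IR libraries in 1 (12.4% of all genes) and below in 3 (13.3% of all genes). The 3 with the highest FPKM work in mitochondria. With their log2 fold changes, they were *Uqcrc1* (−0.11) and *Uqcrc2* (−0.10), core subunits of respiratory complex III, and *Pmpca* (−0.09). *Pmpca* encodes a subunit of the peptidase that trims the import signals of mitochondrial proteins.

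Of 26 other genes that process or degrade peptides, 25 were tested, and 1 rose (1.65% of all genes rose). That gene was *Pcsk1*, the prohormone convertase that cuts precursors of neuropeptides and insulin. Its CPM were 32.0, 31.9 and 29.5 in *Lgmn*+/+-IR against 58.0, 54.3 and 88.8 in *Lgmn*−/−-IR, with replicate 3 of the knockout the highest. The log2 fold change was 1.11 (95% interval 0.66 to 1.56, edgeR adjusted p = 0.0276). The call was lost in 7 of 19 alternatives, among them the omission of any 1 *Lgmn*+/+-IR library. Another of the 7 was the striatal sum as a covariate, under which 0 genes of this list rose. Whether striatal tissue had a part in the values of *Pcsk1* was not tested. DESeq2 called 3 genes of this list higher and 1 lower, beside 1423 of all 18345 genes in either direction. The median log2 fold change of the list was 0.08, and 7 genes had an unadjusted p under 0.05 (18.6% of all genes). *Cpe*, a carboxypeptidase that trims peptide hormones, and the lysosomal cathepsins *Ctsd* and *Ctsb* were the 3 most abundant, with log2 fold changes of 0.01, −0.18 and 0.09 that did not pass. The sign for *Cpe* changed with the normalization.

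Of 33 genes for peptides that these enzymes can cut or that are made the same way, 26 were tested and 2 rose, both neuropeptides (1.65% of all genes rose). *Npy*, an abundant peptide of cortical interneurons, read 112.9, 99.98 and 94.9 CPM in *Lgmn*+/+-IR against 164.2, 140.8 and 189.7 CPM in *Lgmn*−/−-IR. The knockout libraries were all above, with a log2 fold change of 0.68 (edgeR adjusted p = 0.0395). *Crh*, the corticotropin-releasing hormone, read 5.58, 6.35 and 5.34 CPM against 8.31, 9.31 and 10.2 CPM, also without overlap, with a log2 fold change of 0.69 (edgeR adjusted p = 0.0497). *Npy* lost its call in 9 of 19 alternatives, among them the omission of any single library except replicate 2 of *Lgmn*−/−-IR (adjusted p up to 0.167). *Crh* lost its call in 16, among them the omission of any single library (adjusted p 0.0747 to 0.166). With the striatal sum as a covariate 0 genes of this list rose, so *Npy* and *Crh* lost their calls there too. Whether striatal tissue had a part in their values was not tested. DESeq2 called 5 genes of the list and limma-voom 1, beside 1423 and 594 of all 18345 genes in either direction.

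No other tested gene of this list passed with edgeR. *App*, the amyloid precursor, had a log2 fold change of 0.10 that turned negative without replicate 3 of *Lgmn*−/−-IR. Its relative *Aplp1* stood at 0.17, and *Sst*, the somatostatin gene, at 0.31. These 3 had the highest FPKM of those that did not pass. *Ins1* and *Ins2*, which encode insulin, had 0 counts in every library, as did *Kng1*, and a count of 0 allows up to 3 counts in a library. The median log2 fold change of the 26 was 0.26, and 7 had an unadjusted p under 0.05 (18.6% of all genes). All *Lgmn*−/−-IR libraries were above all *Lgmn*+/+-IR libraries in 9 of the 26 (12.4% of all genes). Among these 9 were *Npy*, *Crh*, *Aplp1* and *Sst*. They were all below in 1 (13.3% of all genes).

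Of 30 receptors and signaling genes for such peptides, all 30 were tested and none passed with edgeR. DESeq2 called 2, both higher, beside 1423 of all 18345 genes in either direction. With edgeR 7 had an unadjusted p under 0.05 (18.6% of all genes). The median log2 fold change was 0.16. *Lrp1*, a receptor that clears amyloid β, stood at −0.19, the neurotensin receptor *Ntsr2* at 0.42 and the cholecystokinin receptor *Cckbr* at 0.64, and these were the 3 with the highest FPKM.

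**Figure D4:**
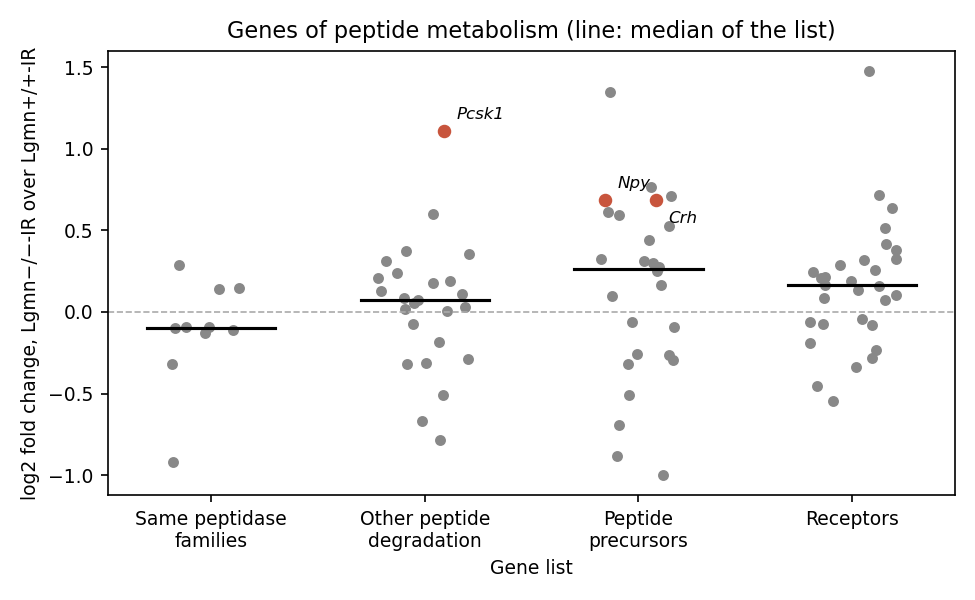
Log2 fold change (y axis, *Lgmn*−/−-IR over *Lgmn*+/+-IR) of each tested gene in 4 lists (x axis); red points passed an adjusted p of 0.05 with edgeR, grey points did not, and black lines are list medians. *Pcsk1* at 1.11, *Npy* at 0.68 and *Crh* at 0.69 are the points that passed, and the medians lie between −0.10 and 0.26.

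The genes on either side of *Ide* were examined to see how far the higher level reached along the chromosome. Of 32 genes in the tables that start within 1 Mb of *Ide*, 19 were tested. Of these 1 rose (1.65% of all genes rose), *Btaf1*, which encodes a factor that removes the TATA-binding protein from DNA and which ends 256 kb before *Ide*. Its CPM were 21.7, 23.4 and 24.2 in *Lgmn*+/+-IR against 42.1, 35.7 and 42.0 in *Lgmn*−/−-IR. Its log2 fold change was 0.79 (SE 0.11, edgeR adjusted p = 0.0109). The call was lost in 2 of 19 alternatives, among them that without replicate 2 of *Lgmn*+/+-IR (adjusted p = 0.0649). *Btaf1* spans 36926079 to 37012752 on the plus strand.

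The genes between *Btaf1* and *Ide* did not pass. *Cpeb3*, a regulator of translation at synapses, had a log2 fold change of −0.10 (edgeR adjusted p = 0.840), and *March5*, a ubiquitin ligase of mitochondria, had one of 0.11 (edgeR adjusted p = 0.563). *March5* ends 46.6 kb from *Ide* and read 51.9, 52.6 and 57.2 CPM in *Lgmn*+/+-IR against 58.8, 55.5 and 59.7 CPM in *Lgmn*−/−-IR, which overlapped. On the other side *Kif11*, a mitotic motor, stood at 0.11 and *Hhex*, a homeobox factor, at −0.08, both at low levels (1.32 and 1.88 CPM in *Lgmn*+/+-IR). The pseudogene *Rpl10-ps6* inside *Ide* stood at 0.34 (edgeR adjusted p = 0.357).

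Over the 19 genes the median log2 fold change was 0.18, with a range of −0.47 to 1.14, and 6 had an unadjusted p under 0.05 (18.6% of all genes). The 1.14 was that of *1500017E21Rik*, a gene of very low count named after its values were seen. Its counts overlapped, at 10, 3 and 5 in *Lgmn*+/+-IR against 18, 6 and 17 in *Lgmn*−/−-IR (edgeR adjusted p = 0.379). The libraries did not overlap for 6 genes, with *Lgmn*−/−-IR above in 5 (12.4% of all genes) and below in 1 (13.3% of all genes). Apart from *Btaf1* and *Rpl10-ps6* these were named after their values were seen. *Fgfbp3*, next to *Btaf1*, stood at 0.49 (edgeR adjusted p = 0.195) and *Fra10ac1* at 0.29 (edgeR adjusted p = 0.266). *Hectd2* stood at 0.74 (edgeR adjusted p = 0.124) from counts and at 0.05 on the log2(FPKM + 1) scale. *Rbp4*, the retinol carrier, was the one below, at −0.47 (edgeR adjusted p = 0.143).

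**Figure D5:**
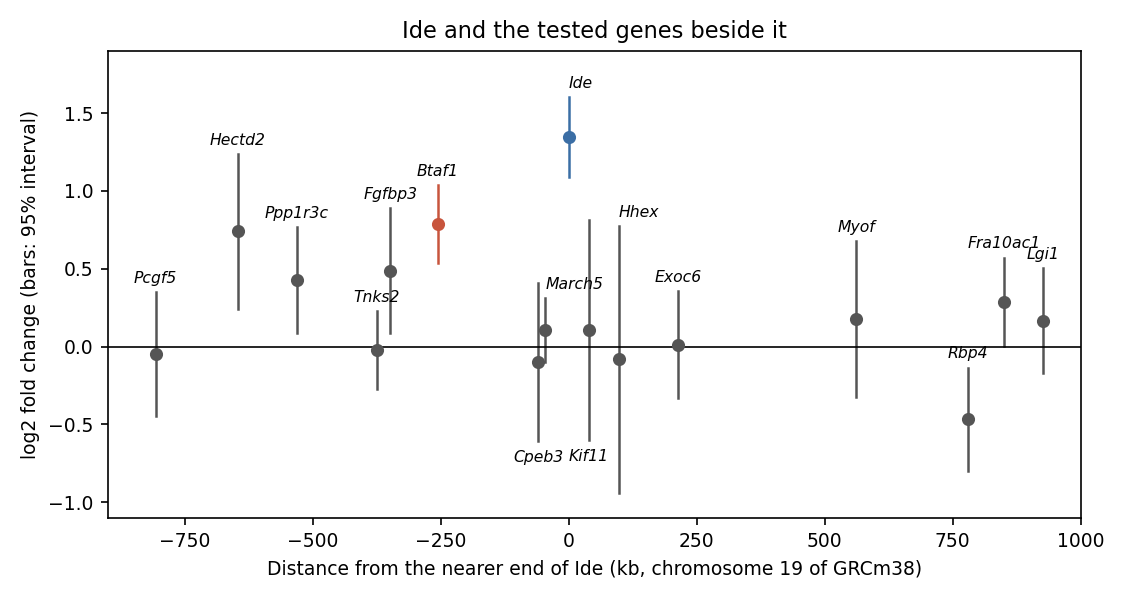
Log2 fold change (y axis, *Lgmn*−/−-IR over *Lgmn*+/+-IR, bars for the 95% interval) of *Ide* and tested genes against their distance from the nearer end of *Ide* (x axis, kb); *Ide* is blue, *Btaf1*, which passed, is red, and genes that did not pass are grey. *Cpeb3* at −0.10 and *March5* at 0.11 lie between *Btaf1* at 0.79 and *Ide* at 1.35; *Rpl10-ps6* inside *Ide* and 3 genes of very low count (*Cyp26a1*, *Cep55* and *1500017E21Rik*) are not drawn.

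Across the 6 libraries, the 5 genes whose log2(CPM + 0.5) followed *Ide* most closely were *Bspry* (r = 0.9993), *Gm43270* (r = 0.9982), *Gm43713* (r = 0.9977), *Gm13016* (r = 0.9972) and *Zfp40* (r = 0.9972). These are Pearson correlations over 6 libraries that share the split into genotypes, and 359 genes had an r above 0.95, so they are a description only. *Bspry* had counts of 14 to 18 in *Lgmn*+/+-IR against 51 to 60 in *Lgmn*−/−-IR. *Gm43713*, an antisense RNA on chromosome 3, had 0 counts in each *Lgmn*+/+-IR library and 80 to 118 in *Lgmn*−/−-IR. *Zfp40*, a zinc finger gene on chromosome 17, read 8.41 to 9.08 CPM against 13.1 to 14.6 CPM. None of the 5 lies on chromosome 19. Of the relatives, *Nln* (r = −0.93) and *Ece2* (r = −0.85) ran opposite to *Ide* over the libraries and *Ece1* ran with it (r = 0.74), while *Thop1* (r = 0.19) and *Mme* (r = −0.34) followed it least. The r of the relatives also follow the split into genotypes and are a description only.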

How the data were processed

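Poly(A) RNA of 6 irradiated cortex libraries was sequenced on a DNBSEQ-T7. Reads were trimmed by the authors (Trimmomatic 0.36) and aligned to GRCm38 using HISAT2. Whole-number counts per gene were deposited without any normalization, and the FPKM that the authors computed with StringTie were deposited for the same genes. The read counter, its use of strand and the annotation release are not given in the sources used here. Of 51826 gene IDs, 51633 were found in GENCODE M21, which gave positions and, for 27 symbols stored as dates, the names. Sequences were read from the GRCm38 reference.

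The members and gene lists were chosen with earlier results of these data known. Named genes were the 6 members, *Lgmn*, list genes that passed and the 3 of each list with the highest FPKM that did not, tested genes within 200 kb of *Ide* and those to 1 Mb that passed, and the 5 most like *Ide*; others are said to be chosen after their values were seen.

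Counts were tested with the edgeR 4.0.16 quasi-likelihood test in R 4.3.3 (TMM, filterByExpr by genotype, Benjamini-Hochberg adjustment over 18345 genes); a gene passed at an adjusted p under 0.05, and "rose" or "fell" is used of such genes only. CPM are TMM-normalized counts. FPKM are used to compare levels between genes, as they are divided by transcript length as StringTie estimated it. Reads carried no molecular identifiers, so their number understates the error. Within a genotype, pairs of libraries had a chi-square between 26.7 and 94.9 when averaged over genes, and each library was counted as a sample. Alternatives were DESeq2 1.42.0, limma-voom and limma 3.58.1 on log2(FPKM + 1) and log2(FPKM + 0.1), other normalizations and filters, the replicate block, omission of hemoglobin genes or of each library, and a striatal covariate added after seeing the data. One gene of the striatal marker list is not reported here and was left out of its sum. The script was tested on simulated counts.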

Additional observations from a re-analysis of the deposited data

How the results depend on the processing

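Over 19 alternatives the log2 fold change of *Ide*, 1.35 as reported, lay between 1.26 and 1.42 when 1 library was left out and between 1.19 and 1.36 otherwise. The lowest value, 1.19, came from log2(FPKM + 1), with and without the filter on low values. The number of relatives that passed was 0 under each of the 19.

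Same-numbered samples did not vary together (correlations of deviations from the group means −0.30, −0.05 and −0.05). With 3 libraries a genotype these values cannot exclude a pairing of the samples by number. With the replicate block, the log2 fold change of *Ide* was 1.34, 0 of 5 relatives passed, and over all genes 150 passed instead of 611. *Pcsk1*, *Npy*, *Crh* and *Btaf1* then had adjusted p of 0.110, 0.131, 0.163 and 0.0765, and the block left 0 of 5 red blood cell, 2 of 6 oligodendrocyte and 0 of 7 astrocyte markers past the threshold.

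Over all genes 1423 passed with DESeq2, 404 without a filter, 406 with at least 10 counts in every library, 381 with log2(FPKM + 1) without a filter and 223 to 500 without 1 library. Among precursors of peptides 0 to 5 rose and among other peptide-degrading genes 0 to 3, with *Npy* lost in 9 alternatives, *Crh* in 16, *Pcsk1* in 7 and *Lgmn* in 8. Without replicate 1, 2 or 3 of *Lgmn*+/+-IR the adjusted p of *Pcsk1* was 0.0871, 0.116 and 0.110, and that of *Lgmn* was 0.103, 0.131 and 0.104. Without replicate 1 of *Lgmn*−/−-IR the adjusted p of *Lgmn* was 0.0949. *Hectd2* passed with DESeq2 (adjusted p 0.0250) and without replicate 1 of *Lgmn*−/−-IR (0.0346).

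The sign of small differences was not stable. For *Thop1* the log2 fold change was −0.0054 with upper quartile normalization, −0.021 with total counts only, −0.024 with log2(FPKM + 1) with and without the filter, −0.025 with log2(FPKM + 0.1), −0.0073 with the striatal covariate and −0.036 to 0.097 without 1 library. With the striatal covariate *Kif11* stood at −0.0048. For *Cpe*, in the first 4 of these settings, it was −0.016, −0.028, −0.0363 and −0.0364, and −0.048 to 0.066 without 1 library. Without 1 library the ranges were −1.82 to 0.067 for *Mme*, −0.30 to 0.083 for *Cpeb3*, −0.057 to 0.34 for *Kif11*, −0.41 to 0.30 for *Hhex* and −0.019 to 0.19 for *App*. The cause was not tested.

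With 3 libraries a genotype, differences of the size seen for *Ece2* or *Nln* did not pass, and the interval of *Mme* covers both directions. Protein and enzyme activity were not measured in these libraries.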
